A study of Homo sapiens with 6 samples.

Results

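Chaperones of the cytosol and the mitochondria were followed by poly(A) RNA sequencing in SAS cells, a human tongue squamous carcinoma line, in which IGF2BP1 had been knocked down. IGF2BP1 binds RNA and protects many of its target transcripts from decay. The 49 genes were listed by name, by what their proteins do, with earlier results of these data known. All 49 were found among the 62700 genes of the count table, and 48 had enough reads to be tested. Knockdown cells received an siRNA against IGF2BP1 (siIGF2BP1) and control cells a control siRNA (siC, genotype given as WT), with 3 libraries each, and values are given in order of replicate number; all come from this 1 line, and a pooled or single siRNA is not specified. Separate cultures are not mentioned in the labels, so the p-values here speak only to library-to-library spread, part of which could be technical. The study asked whether IGF2BP1 counteracts the repression of YAP1 by Hippo signalling, and the chaperones are read here as a set of genes outside that question.

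Newly made and damaged proteins are held in a foldable state by HSP70, which works in cycles driven by J-domain (DNAJ) partners and reset by nucleotide exchange factors. Clients such as protein kinases and steroid receptors pass on to HSP90 through co-chaperones, actin and tubulin fold inside the CCT ring, and small heat shock proteins hold unfolded proteins without using ATP. Mitochondria have their own HSP70, HSP90 and chaperonin. Heat shock factor 1 (HSF1) switches on many of these genes when unfolded proteins accumulate, and tumour cells commonly depend on a high level of them. SERPINH1, the collagen chaperone of the endoplasmic reticulum, is the member that lies outside the 2 compartments.

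Libraries held 17918496 to 26675064 counted reads. IGF2BP1 itself had 1.59, 1.09 and 0.806 CPM in the knockdown libraries and 8.11, 9.60 and 11.2 CPM in the control libraries (log2 fold change -3.07, SE 0.30, adjusted p = 4.56e-06), where CPM is the read count scaled to library size. Of 8 epithelial markers all were detected, at a summed 11498 to 12307 CPM in knockdown and 21994 to 23771 CPM in control libraries. The epithelial identity of the line was thus borne out by its markers, while their sum differed between groups. The markers did not move alike: KRT5, KRT8, KRT14, KRT18 and CDH1 were called lower, and EPCAM, KRT17 and TP63 were not called. The part of this difference in the results below was not tested. Markers of fibroblasts, leukocytes, endothelium and melanocytes summed to at most 19.1 CPM per list and library, and PTPRC, CD3E, DCN, LUM, COL3A1, KDR, MLANA, TYR and DCT had 0 reads. In bulk RNA a smaller number of cells of one kind and less RNA per cell cannot be told apart. Libraries also differed in the level of transcripts poor in G and C: the median deviation from the mean log2 CPM over the quintile of genes with the lowest GC content was -0.17, 0.32 and 0.038 in knockdowns 1 to 3 and -0.26, 0.091 and 0.12 in controls 1 to 3. Control 1 and knockdown 1 were the low libraries, and several AT-rich chaperone genes below were low in the same libraries.

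Of the 48 tested chaperone genes, 8 fell and 2 rose after knockdown at an adjusted p under 0.05. Together the 10 calls are 20.8% of the tested members, where 12.9% of all tested genes were called in either direction. CDC37, TRAP1, DNAJB6, HSPA8, STIP1, HSPB1, DNAJB1 and AHSA1 fell, and DNAJB2 and DNAJA4 rose. Falls made up 16.7% of the tested members and 6.66% of all 14649 tested genes; rises made up 4.17% of members and 6.27% of all genes. Expression level bears on that comparison: 25 of the members lie in the most expressed quintile of genes, where 15.8% of all genes fell, and all 8 falling members were among those 25. The median log2 fold change of the members in that quintile was -0.17, beside -0.048 for all genes there. Without a scaling factor the share of rises among all calls was 63.2% in place of 48.5%, and the members then counted 7 falls and 4 rises. The number of rises was 1 without knockdown 1, knockdown 3, control 1 or control 2, and 4 without knockdown 2, while falls stayed between 6 and 9.

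**Figure D1:**
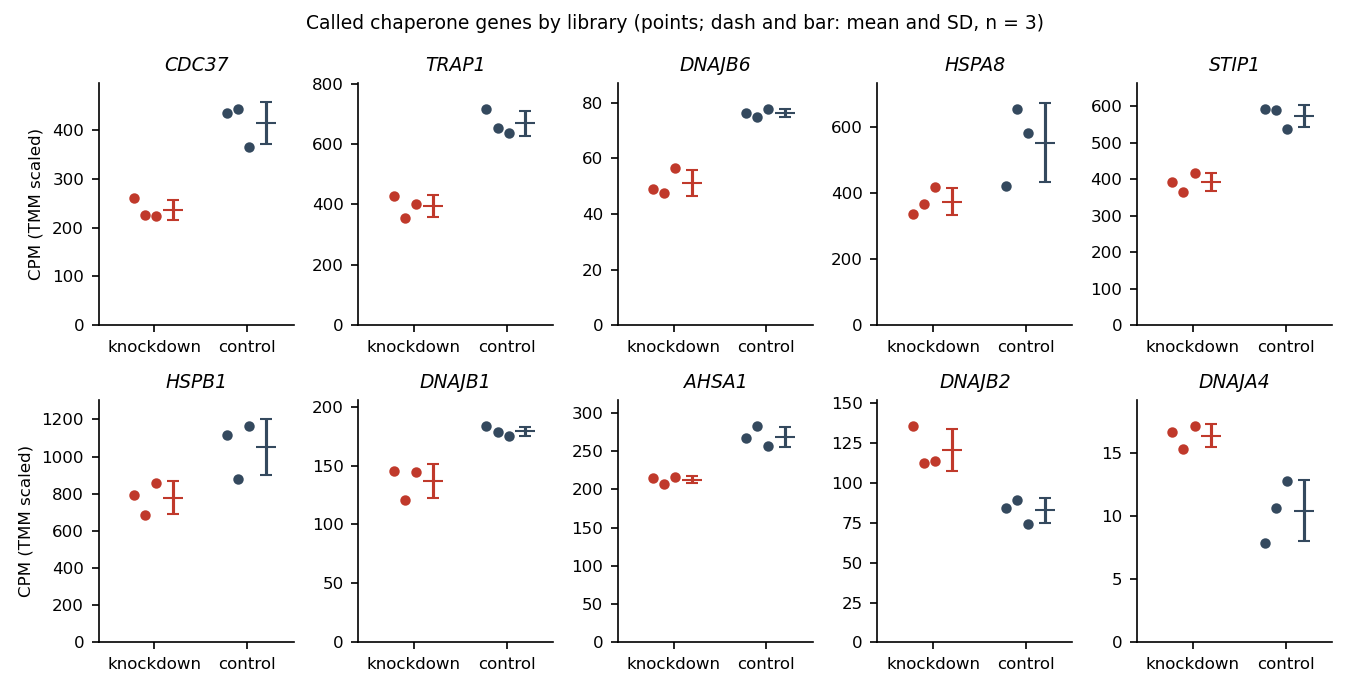
Scaled read counts (CPM, vertical axes from 0) of the 10 called chaperone genes, one point per library, with the mean and SD of 3 knockdown libraries to the left of 3 control libraries. Each knockdown library lies below each control library in the 8 genes that fell and above in DNAJB2 and DNAJA4; in HSPA8 the margin is 416 against 421 CPM.

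HSF1, the master activator of the heat shock response, was abundant and did not pass the test. It stood at 636, 458 and 559 CPM in the knockdown libraries and 491, 412 and 467 CPM in the control libraries, and the groups overlapped. Its log2 fold change was 0.27 (95% interval 0.014 to 0.53, adjusted p = 0.168), and it was 0.15 without knockdown 1 (adjusted p = 0.421) and 0.18 without control 2 (adjusted p = 0.472). The gene was called higher with no scaling factor (0.35, adjusted p = 0.0456), with a replicate block (0.26, adjusted p = 0.0485) and without knockdown 2 (0.36, adjusted p = 0.0424). HSF2, a relative that can pair with HSF1, was barely present, with 9, 8 and 5 reads in the knockdown libraries and 11, 22 and 32 reads in the control libraries. Its log2 fold change was -1.38 (adjusted p = 0.204), and the groups overlapped after scaling to library size. In TPM, which divides by gene length, HSF1 averaged 330.1 TPM in knockdown and 265 TPM in control libraries. HSF2 averaged 0.410 TPM in knockdown and 1.01 TPM in control libraries. Transcripts of HSF1 and HSF2 have 63.9% and 40.5% GC. Levels in TPM went with GC content across genes, as given below, and the part of library preparation in them was not tested.

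The binding element of HSF1 is a run of inverted GAA repeats. RefSeq promoter windows (GRCh38.p14, 250 bases before to 50 after the start) were found for 42 of the 49 genes and searched on both strands for 3 alternating units spaced by NN, that is GAA, NN, TTC, NN, GAA, which is TTC, NN, GAA, NN, TTC on the other strand. The element was in 5 of them (11.9%), against 133 of 27305 promoters of the same length (0.487%). The carriers were HSPA8, DNAJB6, CHORDC1, DNAJA1 and SERPINH1. Of the 8 genes that fell, 2 carried it, HSPA8 and DNAJB6; of the 2 that rose, 0 did, and of the 32 matched members that were tested and not called, 3 did. These matches are letters in a window and not measured sites. Only exact matches to the 13-base pattern counted, so a promoter with 0 matches may still bind HSF1. For each gene only the first listed window was searched, so matches at any other start of the gene were not seen. The stress-inducible HSPA1A and HSPA1B, and BAG3, named below as an HSF1 target, had 0 matches. The promoters below show the element in capitals, for the falling gene with a pair of copies, for the other falling carrier, and for the uncalled gene with the longest run, where 3 overlapping matches join into 23 bases. HSPA8 holds its copies from -230 and from -55, DNAJB6 from -131 and CHORDC1 from -60, counted from the start as +1 with no base 0. HSPA8 (chr11:123062087-123062386, minus strand), DNAJB6 (chr7:157336754-157337053, plus strand) and CHORDC1 (chr11:90223000-90223299, minus strand) read 5′ to 3′ on the gene's strand:
HSPA8: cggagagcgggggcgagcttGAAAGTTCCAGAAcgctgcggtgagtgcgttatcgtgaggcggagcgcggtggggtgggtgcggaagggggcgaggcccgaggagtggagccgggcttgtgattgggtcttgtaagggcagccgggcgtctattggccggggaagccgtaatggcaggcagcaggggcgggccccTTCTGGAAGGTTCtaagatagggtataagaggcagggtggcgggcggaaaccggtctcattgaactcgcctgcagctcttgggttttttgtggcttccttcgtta
DNAJB6: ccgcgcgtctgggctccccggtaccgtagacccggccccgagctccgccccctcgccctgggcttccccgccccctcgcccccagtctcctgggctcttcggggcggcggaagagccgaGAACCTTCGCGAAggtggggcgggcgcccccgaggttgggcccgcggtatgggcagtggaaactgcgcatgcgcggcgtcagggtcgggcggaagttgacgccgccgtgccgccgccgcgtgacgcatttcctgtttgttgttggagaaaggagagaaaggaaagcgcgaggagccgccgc
CHORDC1: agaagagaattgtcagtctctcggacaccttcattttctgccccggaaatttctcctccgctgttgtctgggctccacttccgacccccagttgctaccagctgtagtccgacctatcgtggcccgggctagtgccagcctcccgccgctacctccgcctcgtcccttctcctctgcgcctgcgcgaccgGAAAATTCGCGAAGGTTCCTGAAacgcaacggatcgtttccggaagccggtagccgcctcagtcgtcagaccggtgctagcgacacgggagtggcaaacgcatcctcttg

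The HSP70 group was led by a fall of HSPA8, the constitutive cytosolic HSP70 that also strips clathrin coats. HSPA8 (chromosome 11, 123057489 to 123063230, minus strand) had 335, 367 and 416 CPM in the knockdown libraries and 421, 654 and 582 CPM in the control libraries. Knockdown 3 and control 1 nearly met, and the other libraries lay apart. The difference was a fold of 0.675 (log2 fold change -0.57, SE 0.14, adjusted p = 0.0138); the call was lost without knockdown 1, control 2 or control 3 (adjusted p = 0.0683, 0.0754 and 0.0539). Of the 50-base words of its transcripts, 15.4% also occur in annotated pseudogenes of HSPA8, so part of its count is uncertain.

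The stress-inducible pair HSPA1A and HSPA1B, neighbours on chromosome 6, share 72.6% and 73.5% of their 50-base words with other genes, mostly each other, and are safest as a sum. That sum was 119.9, 104 and 103 CPM in the knockdown libraries and 144, 141 and 119 CPM in the control libraries. The groups overlapped by a small margin, knockdown 1 lying just above control 3. Singly, HSPA1A had 90.7, 81.4 and 78.8 CPM in the knockdown libraries and 113, 107 and 90.1 CPM in the control libraries and a log2 fold change of -0.31 (adjusted p = 0.0998). HSPA1B had 29.2, 22.8 and 23.9 CPM in the knockdown libraries and 31.3, 33.1 and 28.6 CPM in the control libraries and a log2 fold change of -0.29 (adjusted p = 0.220). HSPA1A passed the threshold without knockdown 1 (adjusted p = 0.0460) and without control 3 (adjusted p = 0.0425). It also passed with a replicate block (adjusted p = 0.0450), with GC correction (0.0359) and with both (0.0288). Per length, HSPA8 averaged 244 TPM in knockdown and 351 TPM in control libraries, beside 111 TPM in knockdown and 132 TPM in control libraries for HSPA1A. The ratio of HSPA8 to the summed TPM of HSPA1A and HSPA1B averaged 1.73 in knockdowns and 2.09 in controls, and the groups overlapped. With the length of the longest coding transcript, HSPA8 averaged 292 TPM in knockdowns and 416 TPM in controls, and HSPA1A 65.2 and 77.2 TPM. How reads shared between genes were counted is not given. HSPA9, the mitochondrial HSP70 that pulls in imported proteins, had 43.7, 56.1 and 44.9 CPM in the knockdown libraries and 32.9, 50.6 and 52.3 CPM in the control libraries. The groups overlapped and the 95% interval of its log2 fold change (0.090) ran from -0.26 to 0.44.

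HSP110 proteins are HSP70 relatives that reset it by nucleotide exchange. HSPH1 had 9.18, 12.7 and 6.26 CPM in the knockdown libraries and 7.58, 10.2 and 14.97 CPM in the control libraries (log2 fold change -0.22, 95% interval -0.81 to 0.37, adjusted p = 0.681), and the groups overlapped. HSPA4 and HSPA4L had log2 fold changes of 0.044 (adjusted p = 0.941) and -0.31 (adjusted p = 0.841). HSPA2, best known from the testis, and HSPA14, a partner of the ribosome-bound J protein DNAJC2, stayed under 9 CPM in each library and were not called. Over the 9 HSP70 and HSP110 genes 1 fell and 0 rose, where 6.66% of all tested genes fell. Their median log2 fold change was -0.30, beside 0.033 for all tested genes. That median is the value of HSPA2, which was scarce and not called (adjusted p = 0.551). Without single libraries the group median ran from -0.41 to -0.26.

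**Figure D2:**
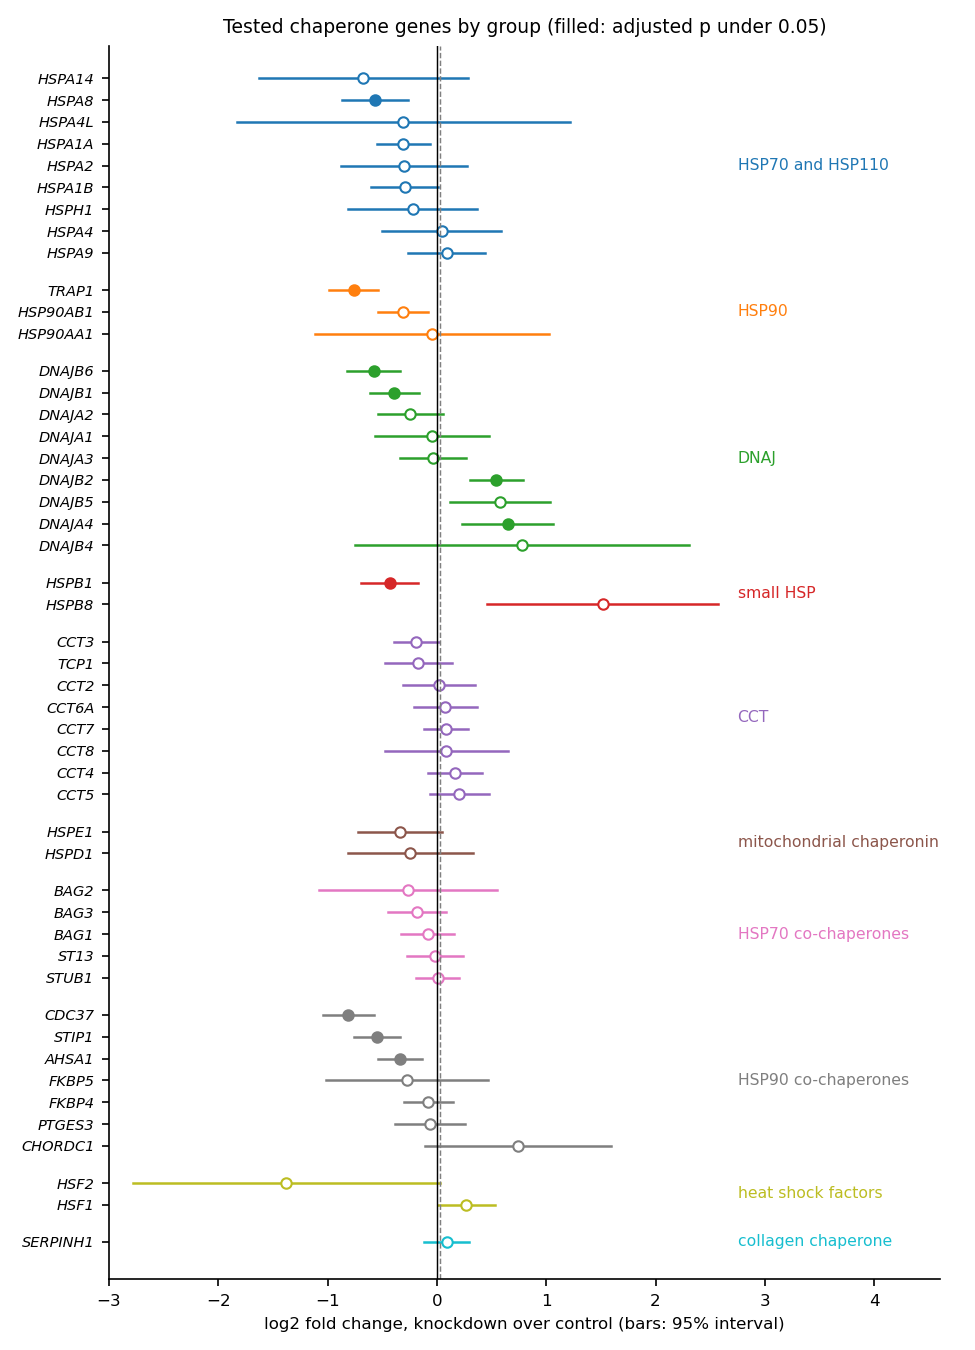
Log2 fold changes, knockdown over control, of the 48 tested chaperone genes (horizontal axis, bars are 95% intervals) by group, with filled points for adjusted p under 0.05, a solid line at 0 and a dashed line at the median of all tested genes. Filled points to the left stand in 5 groups, CCT has none, and DNAJ genes lie on both sides.

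DNAJ genes, whose proteins choose clients for HSP70 and trigger its ATP hydrolysis, moved in both directions, with 2 of 9 lower, 2 higher and a median log2 fold change of -0.034. Its sign turned in some fits: the median was 0.23 without control 2, 0.060 without knockdown 1, 0.027 without knockdown 2 and 0.049 with no scaling factor. It stayed negative without knockdown 3 (-0.059), control 1 (-0.0027) and control 3 (-0.013). DNAJB6, a suppressor of polyglutamine aggregation (chromosome 7, 157335381 to 157417439, plus strand), had 49.05, 47.6 and 56.5 CPM in the knockdown libraries and 76.3, 74.9 and 77.7 CPM in the control libraries. The 3 controls lay within 3 CPM of each other, well above each knockdown (log2 fold change -0.58, SE 0.11, adjusted p = 0.00283), and 19.1% of its 50-base words occur elsewhere. DNAJB1, the classical HSP40 that works with HSP70 in pulling aggregates apart, had 146, 121 and 144 CPM in the knockdown libraries and 183, 178 and 175 CPM in the control libraries (log2 fold change -0.39, SE 0.11, adjusted p = 0.0216). Its groups did not overlap either. DNAJB2, which carries ubiquitin-interacting motifs and is most abundant in neurons, rose: it had 136, 112 and 114 CPM in the knockdown libraries and 84.2, 89.5 and 74.6 CPM in the control libraries (log2 fold change 0.54, SE 0.12, adjusted p = 0.00468). DNAJA4, less abundant, also rose, with 16.6, 15.3 and 17.1 CPM in the knockdown libraries and 7.89, 10.6 and 12.7 CPM in the control libraries (log2 fold change 0.65, SE 0.20, adjusted p = 0.0394), and each knockdown lay above each control. Its call was lost in each fit that left out a library except the one without control 3, with adjusted p-values of 0.0527 to 0.191.

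The other DNAJ genes were not called. DNAJA1, a farnesylated partner of cytosolic HSP70, had 22.3, 30.02 and 27.3 CPM in the knockdown libraries and 16.4, 37.2 and 28.7 CPM in the control libraries (log2 fold change -0.045, 95% interval -0.57 to 0.48, adjusted p = 0.937), where control 1 was the lowest library and control 2 the highest. DNAJB5 lay higher in each knockdown library, at means of 11.1 CPM in knockdowns and 7.42 CPM in controls, with a log2 fold change of 0.58 (adjusted p = 0.0949). Without knockdown 2 DNAJB5 passed the threshold (0.71, adjusted p = 0.0456). DNAJA2, the mitochondrial DNAJA3 and the scarce DNAJB4 had log2 fold changes of -0.24 (adjusted p = 0.305), -0.034 (adjusted p = 0.915) and 0.78 (adjusted p = 0.556).

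Among the HSP90 genes the mitochondrial one fell and the cytosolic pair was not called. TRAP1, the HSP90 of the mitochondrial matrix (chromosome 16, 3651639 to 3717597, minus strand), had 427, 354 and 403 CPM in the knockdown libraries and 716, 653 and 637 CPM in the control libraries. The groups lay far apart, at a fold of 0.590 (log2 fold change -0.76, SE 0.10, adjusted p = 1.37e-04), and the call held in each of the 15 alternative fits. A gene on the opposite strand, DNASE1, covers 29.3% of its exon bases, and whether counting used strand is not given. HSP90AB1, the constitutive cytosolic HSP90, had 712, 688 and 656 CPM in the knockdown libraries and 777, 796 and 971 CPM in the control libraries. Each knockdown library was below each control library, but the difference did not pass (log2 fold change -0.31, SE 0.11, adjusted p = 0.0729). It passed by DESeq2 (adjusted p = 0.0415), with no count filter (adjusted p = 0.0198) and without knockdown 1 (adjusted p = 0.0416). The same was so with a replicate block (adjusted p = 0.0384), with GC correction (0.0299) and with both (0.0317). HSP90AA1, the inducible form, had 22.9, 65.2 and 37.97 CPM in the knockdown libraries and 28.8, 53.3 and 48.1 CPM in the control libraries. Knockdown 2 held the highest value and knockdown 1 the lowest, and the interval was wide (log2 fold change -0.045, 95% interval -1.11 to 1.03, adjusted p = 0.967). Per length HSP90AB1 exceeded HSP90AA1 18.04-fold to 53.3-fold in knockdown libraries and 25.5-fold to 46.2-fold in controls. Within each group the ratio was highest in knockdown 1 and control 1, the low libraries for GC-poor transcripts. The lowest ratio was in knockdown 2, and the part of library preparation was not tested. HSP90AA1 and HSP90AB1 have 45.2% and 48.1% GC. Annotated copies elsewhere in the genome hold 17.5% and 18.8% of the 50-base words of HSP90AA1 and HSP90AB1.

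Co-chaperones of HSP90 held 3 of the 8 falls and 0 rises among 7 genes, with a median log2 fold change of -0.27. That median was -0.052 without knockdown 3, -0.16 without control 3 and -0.18 with no scaling factor. Over all tested genes 6.66% fell, and 15.8% in the most expressed quintile, which held all 8 falling members. Of 16 other tested HSP90 co-chaperones in the wider list below, 0 fell and 1 (FKBP8) rose, at a median of 0.014. CDC37, which loads protein kinases onto HSP90 (chromosome 19, 10391134 to 10420121, minus strand), had 259.7, 227 and 223 CPM in the knockdown libraries and 436, 443 and 365 CPM in the control libraries. This was the lowest log2 fold change among the called members, a fold of 0.571 (log2 fold change -0.81, SE 0.11, adjusted p = 1.18e-04), and it was called in each of the 15 alternative fits. Set against HSP90AB1 per length, the ratio of CDC37 was 0.357, 0.323 and 0.333 TPM per TPM in the knockdown libraries and 0.549, 0.545 and 0.368 TPM per TPM in the control libraries. The ratio was lower in each knockdown than in each control, with control 3 near the knockdowns. STIP1, the scaffold that hands clients from HSP70 to HSP90 (chromosome 11, 64185272 to 64204543, plus strand), had 393, 366 and 416 CPM in the knockdown libraries and 593, 590.0 and 538 CPM in the control libraries (log2 fold change -0.55, SE 0.10, adjusted p = 0.00144). Its groups lay well apart and the call held in all 15 alternatives. AHSA1, the activator of the HSP90 ATPase, had 215, 207 and 216 CPM in the knockdown libraries and 267, 283 and 256 CPM in the control libraries (log2 fold change -0.34, SE 0.10, adjusted p = 0.0288). The knockdowns were tightly grouped below the controls; the call was lost with no scaling factor (adjusted p = 0.0637) and without knockdown 3, control 1 or control 2 (adjusted p = 0.0814, 0.0527 and 0.102).

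The 4 remaining HSP90 co-chaperones among the members were not called. FKBP4, an immunophilin of steroid receptor complexes, averaged 377 ± 35.6 CPM in knockdown libraries and 398 ± 32.3 CPM in control libraries (SD, n = 3 each), with a 95% interval of its log2 fold change from -0.30 to 0.15. PTGES3, the p23 protein that stabilises closed HSP90, averaged 96.97 ± 21.7 CPM in knockdown libraries and 101 ± 16.4 CPM in control libraries (SD, n = 3 each). FKBP5, the glucocorticoid-induced immunophilin, and CHORDC1 lay under 5 CPM in each library and had log2 fold changes of -0.27 (adjusted p = 0.688) and 0.74 (adjusted p = 0.266).

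Co-chaperones of HSP70 gave 0 calls among 5 genes, with 0 at an unadjusted p under 0.05 in edgeR and 0 called by DESeq2, and a median of -0.082, which ran from -0.15 (without knockdown 1) to -0.065 when single libraries were left out. BAG3, which couples HSP70 to autophagy and is itself an HSF1 target, had 190.4, 141 and 160.4 CPM in the knockdown libraries and 198, 160.0 and 201 CPM in the control libraries, and the groups overlapped (log2 fold change -0.18, 95% interval -0.45 to 0.080, adjusted p = 0.393). STUB1, the ubiquitin ligase CHIP, averaged 307 ± 10.9 CPM in knockdown libraries and 306 ± 3.24 CPM in control libraries (SD, n = 3 each), with an interval of -0.19 to 0.21; JMJD8 on the opposite strand covers 42.4% of its exon bases. BAG1, BAG2 and ST13, other regulators of the HSP70 cycle, had log2 fold changes of -0.082, -0.27 and -0.018; 44.2% of the exon bases of BAG2 lie opposite another gene, and 30.7% of the 50-base words of ST13 occur in copies.

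Small heat shock genes differed widely in level. HSPB1, the actin-associated HSP27 (chromosome 7, 76302544 to 76304295, plus strand), had the highest level per length among the members. That level was 1525 TPM in knockdown and 1996 TPM in control libraries. Its transcript has 64.5% GC, and levels per length went with GC content, as given below. HSPB1 had 795, 686 and 859 CPM in the knockdown libraries and 1115, 879 and 1164 CPM in the control libraries (log2 fold change -0.43, SE 0.12, adjusted p = 0.0253). Pseudogenes hold 11.4% of its 50-base words. Control 2 was close to knockdown 3, and the call was lost without knockdown 2, control 1 or control 3 (adjusted p = 0.0575, 0.0681 and 0.103). HSPB8, the partner of BAG3 in autophagy, was low, with 33, 21 and 81 reads in the knockdown libraries and 13, 19 and 17 reads in the control libraries. Each knockdown library was above each control after scaling, with knockdown 3 highest, and the difference just missed the threshold (log2 fold change 1.52, 95% interval 0.46 to 2.57, adjusted p = 0.0562). It passed by DESeq2 (adjusted p = 0.0432), with no scaling factor (0.0470) and with no count filter (0.0390). GC correction (adjusted p = 0.0401) and leaving out knockdown 2 (0.0151) also brought it under the threshold. CRYAB, alpha-B crystallin, had 0 reads in all 6 libraries, which allows up to 0.115 to 0.165 CPM per library, the level of 3 reads, for counting error only.

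No gene of the CCT ring passed the test. All 8 subunit genes were tested and 0 were called, with 0 at an unadjusted p under 0.05 in edgeR and 0 by DESeq2; log2 fold changes ran from -0.19 (CCT3) to 0.21 (CCT5), with a median of 0.082. The median was -0.12 without control 1, -0.020 without knockdown 2, 0.019 without knockdown 3 and 0.13 without knockdown 1, so its sign rested on single libraries. For CCT7 the 95% interval was -0.11 to 0.29 and for CCT3 -0.39 to 0.016. CCT3 had 749, 708 and 767 CPM in the knockdown libraries and 865, 876 and 795 CPM in the control libraries, the single CCT gene whose groups did not overlap. CCT7 had 1319, 1247 and 1300 CPM in the knockdown libraries and 1211, 1248 and 1185 CPM in the control libraries. CCT4 had 133, 138 and 147 CPM in the knockdown libraries and 106, 139.7 and 127 CPM in the control libraries, and CCT5, of which 30.1% of exon bases lie opposite another gene, had 244, 269.8 and 285 CPM in the knockdown libraries and 188, 275 and 229.7 CPM in the control libraries. Their groups overlapped, as did those of the scarcer subunits. CCT2 had 80.6, 98.1 and 102 CPM in the knockdown libraries and 68.8, 111 and 97.5 CPM in the control libraries. TCP1 had 72.9, 86.3 and 66.5 CPM in the knockdown libraries and 65.7, 91.6 and 96.1 CPM in the control libraries. CCT6A had 39.7, 47.04 and 44.5 CPM in the knockdown libraries and 34.5, 44.5 and 45.3 CPM in the control libraries. CCT8, the lowest of the ring, had 6.54, 10.9 and 10.7 CPM in the knockdown libraries and 5.83, 9.26 and 11.5 CPM in the control libraries, with control 1 and knockdown 1 at the bottom. The summed CCT level was 2250, 2224 and 2220 TPM in the knockdown libraries and 2054, 2266 and 2115 TPM in the control libraries, and the groups overlapped.

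Levels of the CCT subunits were far from equal, although the assembled ring holds them in equal number. Per length, CCT7 averaged 1143 TPM in knockdown and 1042 TPM in control libraries, CCT3 609.8 TPM in knockdown and 673 TPM in control libraries, and CCT8 8.93 TPM in knockdown and 8.18 TPM in control libraries. CCT7 exceeded CCT8 107-fold to 188-fold in knockdown libraries and 95.9-fold to 194-fold in controls. CCT4 (164 TPM in knockdown and 142 TPM in control libraries) and CCT5 (150.1 TPM in knockdown and 126 TPM in control libraries) came next, with CCT4 above CCT5 in each of the 6 libraries; with the length of the longest coding transcript in place of the deposited gene length, the means of CCT5 stood above those of CCT4. CCT2 (70.3 TPM in knockdown and 67.3 TPM in control libraries), TCP1 (49.1 TPM in knockdown and 53.3 TPM in control libraries) and CCT6A (36.2 TPM in knockdown and 33.2 TPM in control libraries) followed. CCT3 and CCT7 together made up 78.5% of the summed CCT level in knockdowns and 80.04% in controls. Their transcripts have 51.2% and 51.3% GC, and those of the other 6 subunits 43.1% (CCT8) to 45.9% (CCT2).

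**Figure D3:**
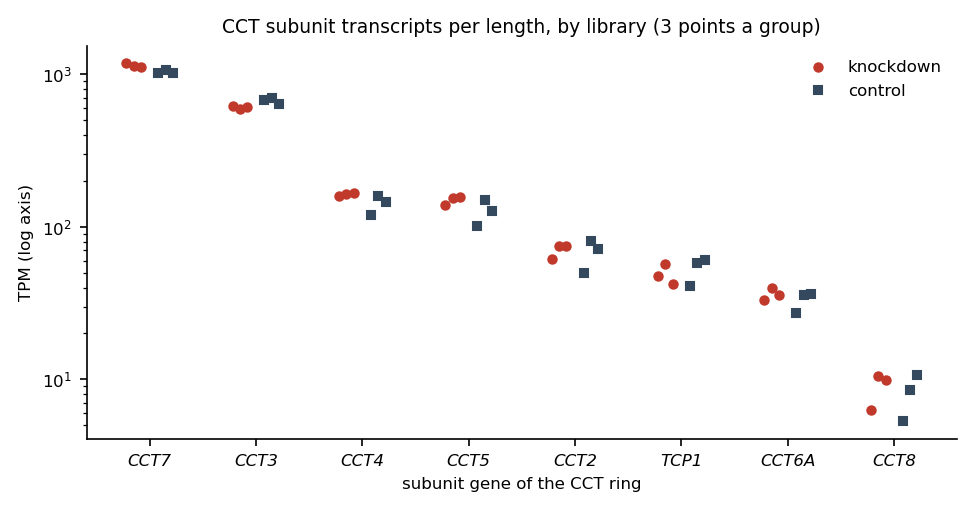
Levels per length (TPM, log axis) of the 8 CCT subunit genes, ordered by level, with 3 knockdown points to the left of 3 control points for each gene. CCT7 and CCT3 stand above the other subunits in each library and CCT8 below them, while knockdown and control points of a gene lie close together.

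Chaperone genes with GC-rich transcripts had the higher levels. Across the 48 tested members, log2 of the mean TPM and the GC content of the longest coding transcript had a Pearson r of 0.664 and a Spearman rho of 0.679, as a description over genes that share the same 6 libraries. Over 14094 genes with at least 60 reads in all, the values were 0.443 and 0.455. The 24 members with the lower GC content had a median of 15.1 TPM in knockdown and 15.5 TPM in control libraries, and the 24 with the higher one 210.1 TPM in knockdown and 223 TPM in control libraries. Control 1 held the lowest of the 3 control values for 19 genes of the lower-GC set, among them HSPA8, HSP90AA1, HSPD1, DNAJA1 and CCT8, and for 4 of the higher-GC set. The median SE of the log2 fold change was 0.26 in the lower-GC set, with 1 call, HSPA8, and 0.11 in the higher-GC set, with 9 calls. The log2 fold change itself had an r of -0.0473 with GC content. With each library corrected for GC content, chosen after the data were seen, 10 members were lower and 3 higher. The part of library preparation in the levels was not tested.

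**Figure D4:**
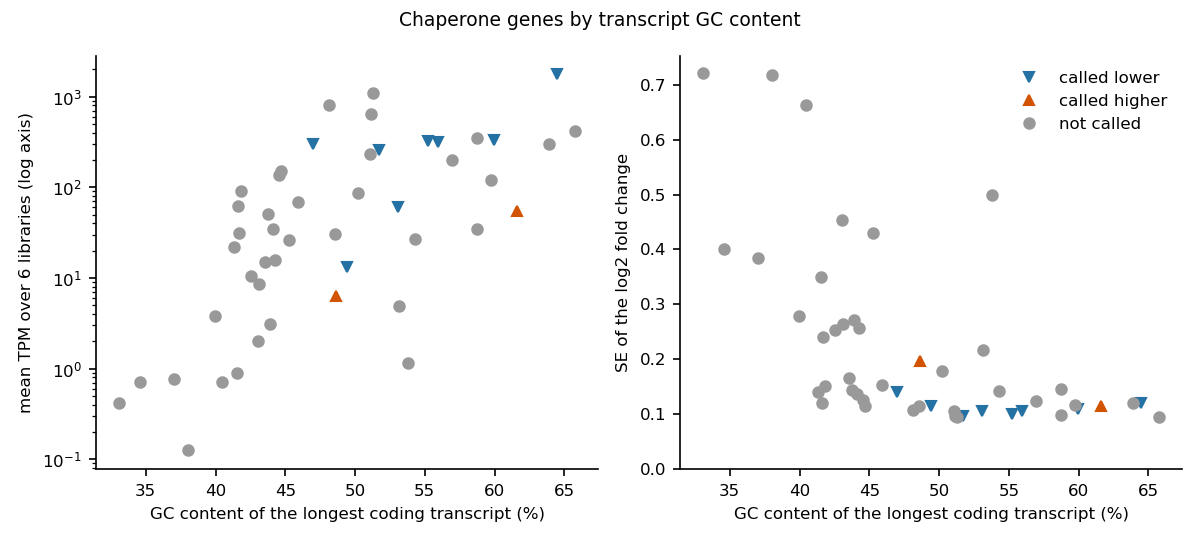
Mean level over 6 libraries (left, TPM, log axis) and SE of the log2 fold change (right) of the 48 tested chaperone genes against the GC content of the longest coding transcript, with symbols for called lower, called higher and not called. The lower-GC set has the lower median level and the larger median SE, with HSPA8, CCT4 and CCT5 among its abundant genes, and 9 of the 10 called genes are in the higher-GC set.

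The mitochondrial chaperonin was not called. HSPD1 (HSP60), the folding chamber, had 25.7, 47.6 and 31.1 CPM in the knockdown libraries and 27.6, 50.3 and 45.7 CPM in the control libraries (log2 fold change -0.24, 95% interval -0.82 to 0.33, adjusted p = 0.624), and knockdown 1 and control 1 were the low library of each group. HSPE1 (HSP10), its lid, is encoded beside it on the opposite strand and had 33.4, 48.2 and 53.02 CPM in the knockdown libraries and 43.4, 66.3 and 60.4 CPM in the control libraries (log2 fold change -0.33, 95% interval -0.72 to 0.048, adjusted p = 0.264). Its groups overlapped, and it was called lower with a replicate block only (-0.34, adjusted p = 0.0482). Copies elsewhere, and for HSPE1 a read-through gene, hold 24.8% and 27.2% of the 50-base words of HSPD1 and HSPE1. Of the 5 mitochondrial members, TRAP1 alone was called. SERPINH1 averaged 730.0 ± 43.6 CPM in knockdown libraries and 687 ± 34.4 CPM in control libraries (SD, n = 3 each; log2 fold change 0.088, 95% interval -0.12 to 0.30, adjusted p = 0.635).

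Groups did not overlap in the lower direction for 10 of 48 tested members (20.8%; 15.1% of all tested genes) and in the higher direction for 4 (8.33%; 15.5% of all); in either direction it was 30.7% of all tested genes. The 49 genes together took 0.923%, 0.908% and 0.906% of the reads in knockdowns 1 to 3, against 0.961%, 0.998% and 0.996% in controls 1 to 3. Each knockdown share was below each control share. These are shares of raw reads, without the scaling factors used for CPM. Those factors were 1.01 to 1.07 in knockdowns and 0.961 to 0.978 in controls, so shares and CPM can differ in overlap. The groups of genes did not all go the same way: HSP90 genes took 0.110% to 0.118% of reads in knockdowns and 0.146% to 0.162% in controls, and HSP90 co-chaperones 0.132% to 0.139% in knockdowns and 0.161% to 0.177% in controls. Mitochondrial members as a set took 0.0595% to 0.0605% in knockdowns and 0.0824% to 0.0867% in controls. TRAP1 dominated that set, at 354 to 427 CPM in knockdowns and 637 to 716 CPM in controls. The highest value of any other mitochondrial member was 69.0 CPM (DNAJA3, control 2). TRAP1 was also the only 1 of the 5 whose groups did not overlap in CPM. Raw shares were higher in each knockdown for the heat shock factors, at 0.0489% to 0.0646% in knockdowns and 0.0402% to 0.0472% in controls. The same held for SERPINH1, at 0.0725% to 0.0789% in knockdowns and 0.0632% to 0.0692% in controls. In scaled CPM, however, the groups of HSF1, HSF2 and SERPINH1 each overlapped. The CCT genes, the largest share, overlapped, at 0.269% to 0.278% in knockdowns and 0.244% to 0.272% in controls. So did the HSP70 and HSP110 genes, at 0.0536% to 0.0608% in knockdowns and 0.0598% to 0.0863% in controls, the small heat shock genes, at 0.0733% to 0.0866% in knockdowns and 0.0857% to 0.114% in controls, the HSP70 co-chaperones, at 0.0602% to 0.0649% in knockdowns and 0.0602% to 0.0640% in controls, and the mitochondrial chaperonin, at 0.00600% to 0.0102% in knockdowns and 0.00681% to 0.0114% in controls. Shares of DNAJ genes also overlapped, at 0.0445% to 0.0486% in knockdowns and 0.0455% to 0.0493% in controls. In scaled CPM, HSPA8 and HSPB1 each lay lower in every knockdown library than in every control library. The overlap of the HSP70 and small heat shock groups is thus stated for raw shares only.

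Other genes of the chaperone system were read from a list of 88 names, of which 87 were found and 70 tested. Of these 70, 2 fell and 1 rose; over all tested genes 6.66% fell and 6.27% rose. The median log2 fold change of the 70 was -0.025. DNAJC11, a J protein of the mitochondrial cristae scaffold, had 23.9, 25.8 and 18.5 CPM in the knockdown libraries and 79.4, 85.4 and 77.2 CPM in the control libraries (log2 fold change -1.83, SE 0.14, adjusted p = 2.92e-07). Its log2 fold change lay below that of each called member, and THAP3 on the opposite strand covers 27.9% of its exon bases. GRPEL1, the nucleotide exchange factor of HSPA9, had 45.1, 56.2 and 54.2 CPM in the knockdown libraries and 71.3, 86.8 and 74.2 CPM in the control libraries (log2 fold change -0.58, SE 0.13, adjusted p = 0.00542). FKBP8, an immunophilin of the mitochondrial outer membrane, rose: it had 648, 642 and 637 CPM in the knockdown libraries and 492, 475 and 505 CPM in the control libraries (log2 fold change 0.39, SE 0.094, adjusted p = 0.0111), and its groups lay far apart. The FKBP8 call was lost when control 1 or control 2 was left out (adjusted p = 0.0634 and 0.0700), and those of DNAJC11 and GRPEL1 held in all 15 alternatives. Prefoldin and CCT helper genes gave 0 calls among 9 tested and other HSP70 and exchange factor genes 0 among 7. Other HSP90 co-chaperones, to which FKBP8 belongs, gave 0 falls and 1 rise among 16 tested. The count of falls in this list was 4 by DESeq2, 4 without knockdown 1 and 6 with GC correction.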

How the data were processed

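Messenger RNA was captured with oligo-dT beads and made into strand-marked libraries, per the labels' protocols. A single deposited table gives, for each gene, its length and its raw read count in each library, as the authors made them. Per the submitters' processing notes, cutadapt 2.8, HISAT2 2.1.0, SAMtools 1.10, featureCounts 2.0.0 and hg38 were used; the sources used here do not give settings, strand use or the annotation release. Depth was 17918496 to 26675064 reads per library, and 0 columns were left unused.

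Genes were kept with filterByExpr (minimum count 10, total 15; 14649 genes) and fitted in R 4.3.3 by the quasi-likelihood method of edgeR 4.0.16 (glmQLFit with TMM scaling, glmQLFTest, Benjamini-Hochberg adjustment over all tested genes, call at adjusted p under 0.05). Fold changes are knockdown over control. An SE is the size of the log2 fold change divided by the root of the F value. TPM divides counts by the deposited gene length, which for most members exceeds that of the longest coding transcript. Transcript GC content, opposite-strand exon overlap, coordinates and shared 50-base words came from GENCODE release 29 (GRCh38), promoters from RefSeq. All called members and a fixed group of others are given library by library. The members and lists were chosen with earlier results of these data known. Alternatives used RLE scaling, no scaling factor, no or a stricter count filter (5 CPM in 3 libraries), a replicate block, leaving out each library, DESeq2 1.42.0 and limma-voom (limma 3.58.1), and, added after seeing the data, a GC correction (lowess, span 0.3) with and without the block.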

Additional observations from a re-analysis of the deposited data

How the results depend on the processing

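Of the 10 called members, 6 (TRAP1, CDC37, STIP1, DNAJB6, DNAJB1 and DNAJB2) kept their call and direction in all 15 alternative fits; HSPA8, HSPB1, DNAJA4 and AHSA1 were each uncalled under 1 or more of them, with no change of direction. Another 6 members were called in at least 1 alternative. The number of members that fell stayed within 1.5 times of 8 throughout, and with the replicate block it was 11. The number that rose was 4 with no scaling factor and 1 to 4 without single libraries. In the wider list the rises numbered 3 with no scaling factor, 2 with no count filter, the replicate block, limma-voom or GC correction with the block, and 0 to 1 without single libraries; the falls numbered 4 with no count filter, the stricter filter or DESeq2, 6 with the block or with GC correction with or without it, and 2 to 4 without single libraries. Over all genes the rises numbered 529 to 828 without single libraries, with 587 without knockdown 3, 585 without control 1 and 529 without control 2. Same-numbered deviations correlated at 0.18, 0.086 and -0.073, beside -0.23 to 0.17 for libraries with different numbers. With 3 libraries per group these values cannot decide whether replicate numbers pair the libraries. The block is no evidence of pairing either.

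The sign of 15 uncalled members turned in some alternative. With no scaling factor the log2 fold changes were 0.051 for HSP90AA1, 0.040 for DNAJA1, 0.049 for DNAJA3, 0.0034 for BAG1, 0.067 for ST13, 0.0069 for FKBP4 and 0.030 for PTGES3. With the stricter filter they were 0.00089 for HSP90AA1, 0.0015 for DNAJA3 and 0.020 for ST13. DNAJA1 had 0.014 with the block and 0.028 by limma-voom. HSPA4 had -0.00021 with GC correction and -0.0049 with the block added. STUB1 had -0.0093 with RLE scaling, -0.0060 with no filter, -0.0093 by DESeq2, -0.069 with GC correction and -0.070 with the block added. Without single libraries the values ran from -0.47 to 0.0021 for HSPA2, -0.12 to 0.20 for HSPA9, -0.54 to 0.073 for HSPH1, -0.30 to 0.20 for HSPA4, -0.53 to 0.24 for HSP90AA1, -0.34 to 0.23 for DNAJA1, -0.19 to 0.036 for DNAJA3, -0.19 to 0.16 for CCT2, -0.068 to 0.14 for CCT6A, -0.17 to 0.32 for CCT8, -0.042 to 0.031 for STUB1, -0.11 to 0.073 for ST13 and -0.28 to 0.073 for PTGES3. The cause was not tested. Depth limits HSF2, HSPB8, DNAJB4, HSPA4L and the other members under 5 CPM.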
